A study of Mus musculus with 20 samples.

Results

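The genes described here were 6 aquaporins, Aqp1, Aqp3, Aqp4, Aqp7, Aqp8 and Aqp11, which were found by name among the 26619 genes counted in distal colon (DC) of mice. All 6 had a row in the count table, and 5 of them passed the filter on low counts that left 17893 genes for testing. The sixth, Aqp3, held 1 to 11 reads per library and was not tested. The tissue came from 20 C57BL/6 mice that ate the Total Western Diet (TWD), which is formulated after typical American intakes of nutrients, for 6 weeks after weaning. For the next 3 weeks 5 mice stayed on the TWD and 5 mice each ate the TWD with resistant potato starch (RPS) at 2, 5 or 10% by weight, called raw potato starch in the labels. The mice carried no transgene or other allele according to the labels, and the 0% RPS mice shared the same basal diet as the others. The question put to the aquaporins was which of them the DC expressed, at what level, and whether that level differed with the amount of RPS.

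Aquaporins are membrane channels built from subunits that each hold their own pore, and they let water follow osmotic gradients across cells. Aqp1, Aqp4 and Aqp8 are mainly water channels, and Aqp8 also passes ammonia and hydrogen peroxide. Aqp3 and Aqp7 are aquaglyceroporins, which pass glycerol as well as water, and Aqp11 belongs to a divergent branch found in membranes inside the cell. In the large bowel the surface epithelium absorbs salt and water, and aquaporins are among the routes that water can take through its cells.

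Each library was a stranded, polyadenylated RNA library from 1 piece of DC of 1 mouse, taken near the anal end. Library totals, in megacounts (M), were at least 18.4 M and were lower in the RPS groups, with 32.8 ± 1.35 M (SD, n = 5) in the 0% RPS group and 24.3 ± 3.42 M in the 10% RPS group. Levels are counts per megacount of the scaled library (CPM), with the edgeR default scaling (TMM). The 6 markers of posterior colon, all Hox genes, summed to 535 CPM in RS10_721 (5% RPS) and to 651 to 977 CPM in the other libraries. The 5 of more proximal colon summed to 57.2 CPM in RS10_721 and to 42.5 to 56.1 CPM in the others. In RS10_721 Hoxd10, Hoxd11, Hoxd12 and Hoxd13 were below every other library, with Hoxd13 at 54.8 CPM against 141 to 236 CPM. Its Hoxa13 and Hoxb13 were within the range of the others. No piece of proximal colon was compared. Mice were grouped by their description label, which for 3 of them disagrees with the treatment label. Mouse RS10_717 is 5% by the description and 2% by the treatment label, RS10_725 is 10 and 5%, and RS10_748 is 2 and 10%. DESeq2, the test used in the study, was also run on the description label. At 10% RPS it gave the adjusted p values that the paper prints for Slc9a3 (0.000891), Scnn1b (0.00313) and Scnn1g (0.0173) in DC. The published values of these genes thus match the description label. Which diet each of the 3 mice ate is not settled by that. The library of RS10_721 (5% RPS) held the most pancreas RNA. Its sum over 7 pancreas markers was 5611 CPM against 368 to 810.3 CPM in the other libraries. The 810.3 CPM belonged to RS10_784 (10% RPS). Of the 7 markers, Cela1 was at 519.9 ± 73.2 CPM at 0% RPS already. Pnlip was at 0.165 ± 0.228 CPM at 0% RPS and reached 90.7 CPM at 10% RPS. Pancreas RNA was therefore not limited to RS10_721. The results of Aqp8 and Aqp4 at 10% RPS and in the trend are given with and without RS10_721 and the 3 mice. Their trends without RS10_784 are given as well. Calls among other genes without RS10_721 and the 3 mice are given at the end.

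Aqp8 (ENSMUSG00000030762) lies on chromosome 7 of GRCm39 from 123061514 to 123067227 on the + strand, and Aqp11 (ENSMUSG00000042797) on the same chromosome from 97373213 to 97387524 on the - strand. Aqp1 (ENSMUSG00000004655) is on chromosome 6 from 55313068 to 55325540 on the + strand, and Aqp4 (ENSMUSG00000024411) is on chromosome 18 from 15522451 to 15544039 on the - strand. The aquaglyceroporins Aqp3 (ENSMUSG00000028435, 41092722 to 41098183) and Aqp7 (ENSMUSG00000028427, 41032835 to 41048211) are neighbours on the - strand of chromosome 4, 44510 bases apart. All 6 are protein coding. An antisense long non-coding RNA gene, Gm68796, shares 50 exonic bases with Aqp7, and another, Gm50048, lies across Aqp4 with 0 shared exonic bases. Whether reads were counted by strand is not stated in the sources used here, so reads in the 50 shared bases may belong to either gene.

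The sequence before the start of Aqp8 is shown because Aqp8 was the most abundant member per length and the one whose trend edgeR called. RefSeq's start for it gives the 250 bases below at chr7:123462044-123462293 on the + strand of GRCm38.p6, and the same bases have 1 match in GRCm39, at chr7:123061267-123061516.

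Aqp8, bases before the start: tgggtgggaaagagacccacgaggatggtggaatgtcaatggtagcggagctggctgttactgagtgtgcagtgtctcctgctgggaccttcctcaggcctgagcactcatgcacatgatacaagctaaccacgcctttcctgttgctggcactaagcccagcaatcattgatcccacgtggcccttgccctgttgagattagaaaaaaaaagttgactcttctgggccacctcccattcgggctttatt

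The run is in lower case throughout because none of 7 short motifs searched on both strands was found in it. Of the 32851 starts in the table, a TATA box (TATAAA) was present in the same window of 12.4%, a CCAAT box (CCAAT) of 33.8% and a GC box (GGGCGG) of 32.7%. The core bound by caudal-type homeobox factors (TTTATG) was present in 10.8%, that of GATA factors (GATAAG) in 6.55%, an HNF1 half-site (GTTAAT) in 6.43% and a steroid receptor half-site (AGAACA) in 16.1%. The letters of these motifs are not in this window, and nothing follows from that about any factor.

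To compare the members with each other, CPM were divided by the length of each gene's exons in kilobases (kb). Aqp8 was by far the most abundant member per length, with a median over the 20 mice of 309.5 CPM per kb and a range of 174 to 506 CPM per kb, which placed it at the 99.5th percentile of all tested genes. Aqp1 followed with a median of 28.4 CPM per kb (23.5 to 34.5, 93.1st percentile) and Aqp4 with 11.6 CPM per kb (5.37 to 56.4, 82.4th percentile). The ranges of Aqp1 and Aqp4 overlap, so their order differs between mice. Aqp11 had a median of 1.60 CPM per kb (0.952 to 2.21, 40.6th percentile). The aquaglyceroporins were lowest, Aqp7 at 0.139 CPM per kb (0.0874 to 0.617, 7.40th percentile) and Aqp3 at 0.108 CPM per kb (0.0185 to 0.199), and their ranges overlap as well. The ranges of Aqp8 and Aqp1, of Aqp4 and Aqp11, and of Aqp11 and Aqp7 do not overlap.

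**Figure D1:**
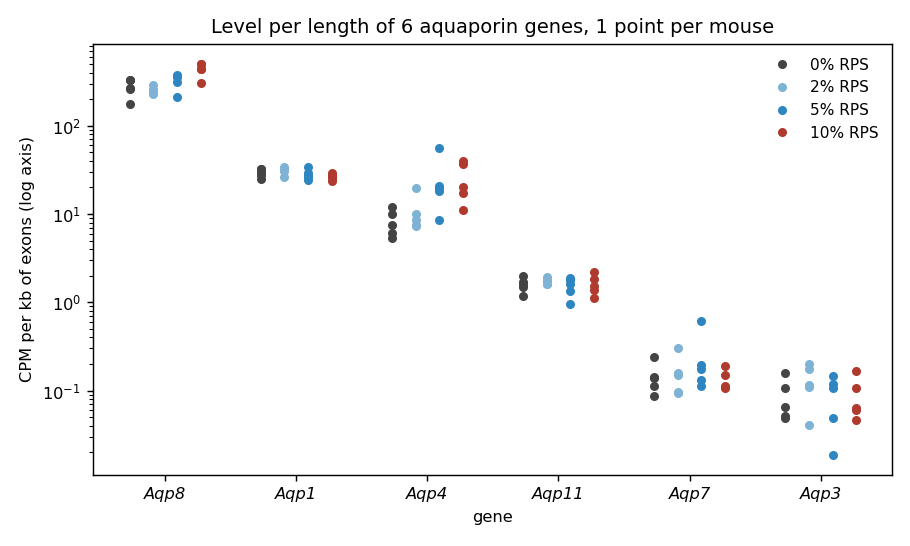
Level per length (CPM per kb of exons, log axis) of the 6 aquaporin genes, with 1 point for each of the 20 mice, coloured by the percent of RPS in the diet. Aqp8 lies above all other members in every mouse, and Aqp7 and Aqp3 lie below 1 CPM per kb.

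As a share of the summed CPM per kb of the 10 aquaporin genes in the table, Aqp8 made up 86.6 ± 4.68% (SD, n = 5) at 0% RPS and 88.8 ± 2.67% at 10% RPS. Aqp1 made up 9.86 ± 3.05% at 0% RPS and 5.59 ± 1.57% at 10% RPS. Aqp4 made up 2.86 ± 1.62% and 5.10 ± 2.22%. The sum itself at 0, 2, 5 and 10% RPS was 312 ± 59.6, 296 ± 28.3, 381 ± 71.6 and 491 ± 82.2 CPM per kb. Lengths depend on the annotation, and with the mean length of coding transcripts the share of Aqp11 at 0% RPS became 1.49% in place of 0.518%.

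The members were next compared between each RPS level and the TWD alone. A gene was called when the edgeR quasi-likelihood test gave an adjusted p of at most 0.05 over all tested genes with a fold change of at least 1.5. At 10% RPS edgeR called 0 of the 5 tested members, beside 7 genes or 0.0391% of all tested genes. Of the 5 members, 2 had an unadjusted p under 0.05, Aqp8 and Aqp4, both with higher values at 10% RPS, beside 15.2% of all tested genes. DESeq2, the test used in the study, called these same 2 members as higher, beside 0.811% of all genes it tested and 0.533% that were higher. With limma-voom 0 members were called, beside 0.0391% of all genes. At 5% RPS edgeR called 0 members and 0% of all genes, and 1 member (Aqp4) and 9.19% of all genes had an unadjusted p under 0.05. DESeq2 called 0 members and 0.112% of genes at that level. At 2% RPS edgeR called 0 members and 0% of all genes, and 0 members and 1.41% of all genes had an unadjusted p under 0.05. DESeq2 called 0 members and 0.00386% of genes there.

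A linear trend over the percent of RPS used all 20 mice at once. It was called in 1 of the 5 tested members, Aqp8, which rose, beside 2.10% of all tested genes and 1.15% that rose. DESeq2 called the trend in 2 members, Aqp8 and Aqp4, beside 3.76% of genes and 2.16% that rose. The 3 pairwise comparisons and the trend share the 0% RPS mice and are not independent of each other.

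Aqp8 was the strongly expressed member and the one with the clearest relation to RPS. At 0% RPS its level was 419.6 CPM in mouse RS10_701, 275 in RS10_703, 415 in RS10_704, 524 in RS10_707 and 521 in RS10_708. At 10% RPS it was 686 CPM in RS10_725, 799.6 in RS10_727, 790.0 in RS10_729, 483 in RS10_731 and 698 in RS10_784. At 10% RPS 4 of the 5 mice lay above the highest 0% RPS mouse, and RS10_731 lay within the 0% RPS range, so the groups overlap by 1 mouse.

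At 5% RPS the level of Aqp8 was 597 CPM in RS10_717, 584 in RS10_718, 561 in RS10_719, 496 in RS10_721 and 331 in RS10_724. At 2% RPS it was 358 CPM in RS10_709, 406 in RS10_712, 463 in RS10_715, 369 in RS10_716 and 401 in RS10_748. Of the 5% RPS mice 3 exceeded the highest 0% RPS mouse, whereas all 5 mice at 2% RPS lay within the 0% RPS range.

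The group means of Aqp8 at 0, 2, 5 and 10% RPS were 431 ± 102, 399 ± 41.0, 514 ± 109 and 691 ± 128 CPM (SD, n = 5 each). Against 0% RPS the log2 fold change was 0.68 ± 0.17 (SE) at 10% RPS, a fold of 1.60, with a 95% interval of 0.32 to 1.04 and an edgeR adjusted p of 0.0882. DESeq2 gave 0.69 with an adjusted p of 0.00865. The difference at 10% RPS thus passed the fold threshold in both tests and the threshold on p in DESeq2 alone. At 5% RPS the log2 fold change was 0.25 (95% interval -0.11 to 0.61, edgeR adjusted p = 0.670), and at 2% RPS it was -0.11 (95% interval -0.47 to 0.25, edgeR adjusted p = 1).

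Over the 4 diets Aqp8 rose by 0.76 ± 0.16 on the log2 scale for 10% RPS (edgeR trend, adjusted p = 0.0192). DESeq2 gave an adjusted p of 0.000641 for the same trend. The call of edgeR was lost when either of 2 mice at 10% RPS was left out, with a trend of 0.70 (adjusted p = 0.0528) without RS10_729 and 0.75 (adjusted p = 0.0632) without RS10_784. It was also lost with the 3 mice of disagreeing labels left out, at 0.75 (adjusted p = 0.0649), with RS10_721 left out as well, at 0.74 (adjusted p = 0.0745), and under the treatment label, at 0.59 (adjusted p = 0.234). Calls over all genes fell in the same fits, from 2.10% to 0.702% without RS10_729 and 0.133% without RS10_784. They fell to 0.312% without the 3 mice, 0.486% without RS10_721 as well, and 0% under the treatment label. DESeq2 kept its call of the Aqp8 trend without the 3 mice (adjusted p = 0.00753) and without RS10_721 (adjusted p = 0.000665). It called 2.69% and 4.03% of all genes in these fits.

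**Figure D2:**
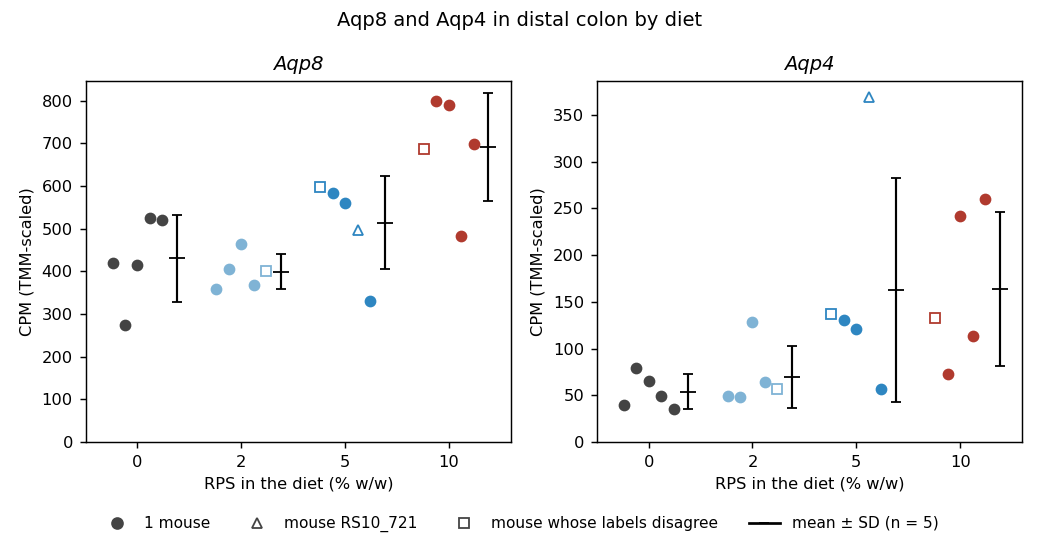
CPM of Aqp8 (left) and Aqp4 (right) in each mouse by percent of RPS, with the mean ± SD of each diet (n = 5) as a bar beside the points. Triangles mark RS10_721 and squares the 3 mice whose labels disagree. For both genes 4 of the 5 mice at 10% RPS lie above the highest 0% RPS mouse, and the highest value of Aqp4 is that of RS10_721.

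Aqp4, a water channel that in the colon sits in the basolateral membrane of surface epithelial cells, had larger differences than Aqp8 with far more spread. At 0% RPS its level was 39.5 CPM in RS10_701, 79.3 in RS10_703, 65.8 in RS10_704, 49.4 in RS10_707 and 35.2 in RS10_708. At 10% RPS it was 133 CPM in RS10_725, 72.4 in RS10_727, 242 in RS10_729, 114 in RS10_731 and 260.2 in RS10_784. Here too 4 of the 5 mice at 10% RPS were above the highest 0% RPS mouse, and the mouse within the 0% RPS range was RS10_727, not RS10_731 as for Aqp8.

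At 5% RPS Aqp4 measured 137 CPM in RS10_717, 131 in RS10_718, 121 in RS10_719, 369.7 in RS10_721 and 56.4 in RS10_724. At 2% RPS it measured 49.3 CPM in RS10_709, 48.5 in RS10_712, 128 in RS10_715, 64.7 in RS10_716 and 56.7 in RS10_748. At 5% RPS 4 mice exceeded the 0% RPS range, and at 2% RPS 1 mouse did. The highest of the 20 mice was RS10_721, whose library held pancreas RNA, and RS10_724 was lowest of the 5% RPS mice for Aqp4 and for Aqp8 alike.

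The group means of Aqp4 at 0, 2, 5 and 10% RPS were 53.8 ± 18.5, 69.5 ± 33.5, 163 ± 120.0 and 164 ± 82.6 CPM (SD, n = 5 each). The log2 fold change at 10% RPS was 1.61 ± 0.47 (SE), a fold of 3.06, with a 95% interval of 0.62 to 2.60 and an edgeR adjusted p of 0.124. DESeq2 gave 1.62 with an adjusted p of 0.0269, which became 0.0793 without the 3 mice of disagreeing labels and 0.00544 without RS10_721. At 5% RPS the log2 fold change was 1.60 ± 0.47 (edgeR adjusted p = 0.346), and 1.04 ± 0.41 (adjusted p = 0.616) without RS10_721. At 2% RPS it was 0.37 ± 0.46 (edgeR adjusted p = 1), and 0.03 without RS10_715.

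The trend of Aqp4 was 1.73 ± 0.49 on the log2 scale for 10% RPS with an edgeR adjusted p of 0.0687, and DESeq2 called it with an adjusted p of 0.00799. Without RS10_721 the edgeR trend was 1.62 ± 0.34 and passed the threshold (adjusted p = 0.0229), as it did without RS10_727 at 1.99 (adjusted p = 0.0248). It also passed with limma-voom, at 1.59 (adjusted p = 0.0372), and did not under the treatment label, at 1.45 (adjusted p = 0.281). Nor did it pass without the 3 mice of disagreeing labels, at 1.83 (adjusted p = 0.120), or without RS10_784, at 1.60 (adjusted p = 0.181). DESeq2 called it without the 3 mice (adjusted p = 0.0221). Over all genes, called trends made up 2.50% without RS10_721, 6.34% without RS10_727 and 2.05% with limma-voom. The size of the Aqp4 trend therefore stayed between 1.45 and 1.99 over all the alternatives run, while its place relative to the threshold changed.

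**Figure D3:**
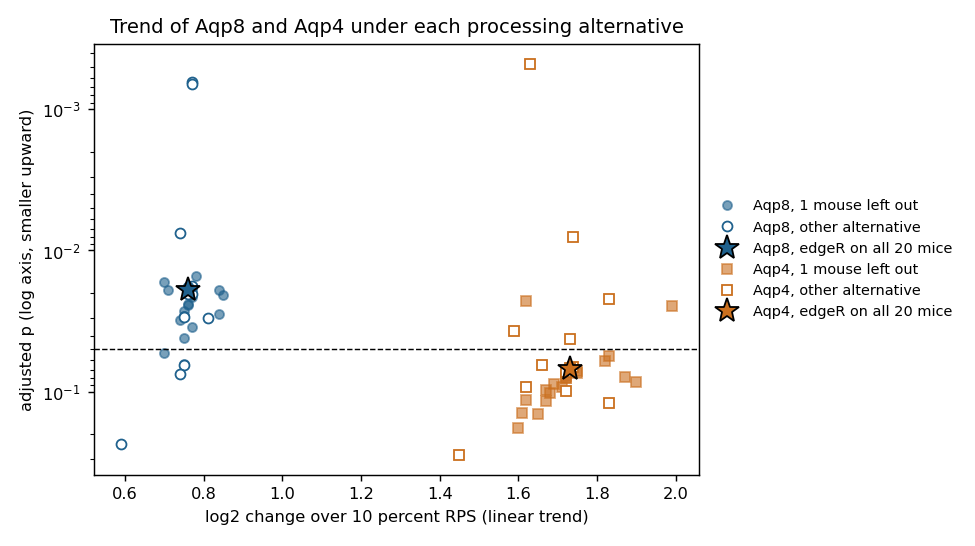
Linear trend of Aqp8 (circles) and Aqp4 (squares), as log2 change over 10% RPS on the horizontal axis, against its adjusted p on a log axis with smaller values upward. Filled points leave out 1 mouse each, open points are the other alternatives, stars are edgeR on all 20 mice, and the dashed line is an adjusted p of 0.05. The Aqp8 trend stays between 0.59 and 0.85 and the Aqp4 trend between 1.45 and 1.99, and both lie on either side of the line.

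Some other measures moved with RPS in the same libraries. The summed level of 8 surface colonocyte markers ranged from 13262 to 17216 CPM in the 0% RPS mice, from 13240 to 15631 in the 2%, from 15006 to 17723 in the 5% and from 16060 to 19591 in the 10% RPS mice, and none of the 8 was at 0 in any library. Of these 8 markers 1 was called higher at 10% RPS (0.0391% of all tested genes) and 3 rose in the trend (1.15% of all tested genes), with a median log2 fold change at 10% RPS of 0.42 against -0.01 over all tested genes. Car4 was the marker called at 10% RPS. The edgeR trends were 0.70 for Car4 (adjusted p = 0.00214), 0.61 for Slc26a3 (0.00423) and 0.97 for Krt20 (0.0249). Car4 and Slc26a3 are counted again in the list of absorption genes below. The largest part of the sum was Lypd8, at 8994 ± 938 CPM at 0% and 10867 ± 1008 CPM at 10% RPS, which was not called (edgeR adjusted p = 0.176). Among the 8, Car1 was at 0.09 and Slc20a1 at -0.23 at 10% RPS. The posterior Hox sum ranged from 745 to 977 CPM in the 0%, from 736 to 867 in the 2%, from 535 to 858 in the 5% and from 651 to 749 CPM in the 10% RPS mice. Of its 6 genes 1 fell in the trend, beside 0.950% of all tested genes (Hoxb13, -0.32, edgeR adjusted p = 0.0425). Hoxb13 was the largest part of the sum, at 520.4 ± 54.7 CPM at 0% RPS. The log2 fold change of the others at 10% RPS ran from -0.44 (Hoxd11) to -0.02 (Hoxd12). The part of either in the levels of Aqp8 and Aqp4 was not tested. In whole tissue, more cells of a type and more RNA per cell cannot be told apart.

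Aqp1, the water channel of capillary endothelium and red cells, was the steadiest member. Its level over the 20 mice ran from 69.9 to 103 CPM. The 0% RPS mice lay between 74.6 and 96.1 CPM with a median of 89.7, the 2% mice between 78.7 and 100.4 with a median of 92.7, the 5% mice between 72.1 and 103 with a median of 82.3, and the 10% mice between 69.9 and 86.6 with a median of 78.5. All groups overlap, and 0 of the 5 mice at 10% RPS were above the 0% RPS range and 1 was below it.

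The means of Aqp1 were 87.4 ± 9.33 CPM (SD, n = 5) at 0% RPS and 78.7 ± 6.44 CPM at 10% RPS. The log2 fold change was -0.15 ± 0.09 (SE, edgeR adjusted p = 0.450), and its 95% interval of -0.34 to 0.04 leaves out a change of 1.5-fold in either direction. The trend was -0.19 ± 0.09 for 10% RPS, with an unadjusted p of 0.0403 and an edgeR adjusted p of 0.234. The 7 endothelial markers summed to between 173 and 241 CPM in the 0% and between 176 and 214 CPM in the 10% RPS mice. Of these 7, Cldn5, a tight junction protein of endothelium, fell in the trend by 0.56 (edgeR adjusted p = 0.0404) and the other 6 did not pass. Red cell markers summed to 12.7 to 83.8 CPM except in RS10_715 (2% RPS) with 349 CPM, where Aqp1 was the lowest of its diet at 78.7 CPM.

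Aqp11 was expressed at a modest level and differed little between diets. It lay between 11.8 and 19.6 CPM in the 0% RPS mice, between 15.9 and 19.2 in the 2%, between 9.49 and 18.7 in the 5% and between 11.3 and 22.1 in the 10% RPS mice. The means at 0 and 10% RPS were 15.8 ± 2.88 and 16.0 ± 4.19 CPM (SD, n = 5). The log2 fold change at 10% RPS was 0.03 ± 0.18 (SE, edgeR adjusted p = 0.964), with a 95% interval of -0.34 to 0.39. The lowest of the 20 mice was RS10_721 at 9.49 CPM, the mouse that was highest for Aqp4.

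Aqp7, known from fat cells where it lets glycerol out, was close to the lower end of what could be tested, with 13 to 43 reads per library in 19 mice and 87 reads in RS10_721. Its means at 0, 2, 5 and 10% RPS were 0.727 ± 0.296, 0.813 ± 0.432, 1.25 ± 1.06 and 0.681 ± 0.184 CPM (SD, n = 5 each). The log2 fold change at 10% RPS was -0.10 ± 0.44 (SE, edgeR adjusted p = 0.942), and its 95% interval of -1.01 to 0.81 includes changes of 1.5-fold in both directions. The SE was 0.33 without RS10_721 and 0.48 with all libraries thinned to the smallest total. At 5% RPS it was 0.78 ± 0.41 (edgeR adjusted p = 0.586), and 0.11 without RS10_721. In that mouse Aqp7 was at 3.13 CPM, and the next highest of the 5% RPS mice was at 0.994 CPM. Its 6 fat cell markers summed to 210.3 CPM against 33.5 to 133 CPM in the other 19 mice. Their part in the level of Aqp7 was not tested.

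**Figure D4:**
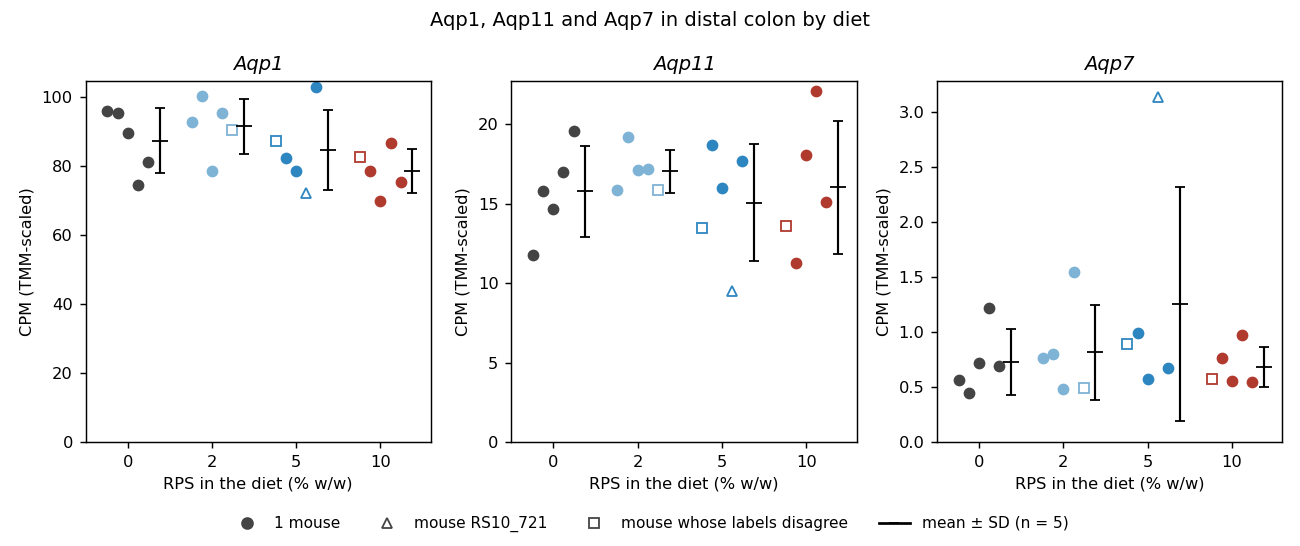
CPM of Aqp1, Aqp11 and Aqp7 in each mouse by percent of RPS, with the mean ± SD of each diet (n = 5). Triangles mark RS10_721 and squares the 3 mice whose labels disagree. The diets overlap for all 3 genes, and RS10_721 is the highest mouse for Aqp7 and the lowest for Aqp11.

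Aqp3, an aquaglyceroporin known from the basolateral membrane of epithelia, was nearly absent from these libraries. Its means at 0, 2, 5 and 10% RPS were 0.157 ± 0.0837, 0.236 ± 0.114, 0.160 ± 0.0955 and 0.162 ± 0.0897 CPM (SD, n = 5 each), with 1 to 11 reads per library. The counts are too low for a test, and the ranges of all 4 diets overlap.

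**Figure D5:**
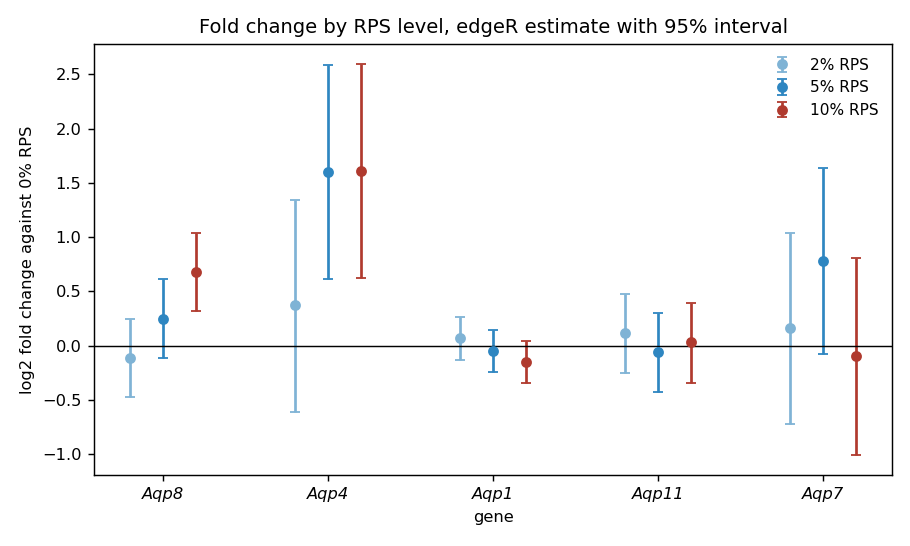
The log2 fold change against 0% RPS of the 5 tested aquaporins at 2, 5 and 10% RPS, as the edgeR estimate with its 95% interval. The intervals of Aqp8 at 10% RPS (0.32 to 1.04) and of Aqp4 at 5 and 10% RPS lie above 0 before adjustment. Those of Aqp1, Aqp11 and Aqp7 include 0 at each RPS level. At 10% RPS the interval is -0.34 to 0.04 for Aqp1 and -0.34 to 0.39 for Aqp11.

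Of the other aquaporin genes, Mip (the lens aquaporin), Aqp5 (of exocrine glands), Aqp9 (the glycerol channel of liver) and Aqp12 (of pancreatic acinar cells) had a row and none was tested, and Aqp2 and Aqp6 were not analysed here. Mip, Aqp5 and Aqp9 held 0 to 12 reads in every library. Aqp12 held 0 to 12 reads in 19 libraries and 83 reads, or 2.98 CPM, in RS10_721, where the pancreas marker Pnlip was at 1108 CPM against at most 90.7 CPM in the others.

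For each tested member the 5 genes with the most similar level across mice were found among 15228 genes of at least 1 CPM, by Pearson's r of log2 CPM over the 20 mice after each diet's mean was taken out. These are descriptions with no test, and the values share libraries and depth. Aqp4 was most like Mgat4c, a glycosyltransferase gene (r = 0.93, and 0.92 without RS10_721), followed by the ribosome assembly gene Utp20 (0.92), the intestinal cadherin gene Cdh17 (0.91), the desmosomal cadherin gene Dsc2 (0.91) and the apoptosis inhibitor gene Xiap (0.90). Mgat4c had a log2 fold change at 10% RPS of 2.09 (edgeR adjusted p = 0.0825). Aqp8 was most like Ndufs5, Sdhaf4, Afg3l2, Fuom and Malsu1, with r from 0.75 to 0.78. Ndufs5 encodes a subunit of respiratory complex I and Sdhaf4 an assembly factor of complex II. The adjusted p of none of these 5 genes was below 0.161 at 10% RPS, so they followed Aqp8 within diets and were not called between them.

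Aqp11 was most like Ehhadh, a peroxisomal enzyme of fatty acid oxidation (r = 0.95, and 0.94 without RS10_721), then Pdcd4 (0.92), Akap9 (0.91), Rbl2 (0.91) and Fmo4 (0.91). Aqp1 was most like Cav1, which encodes the main coat protein of caveolae (0.87), then P2rx6 (0.84), Sh3bp1 (0.84), Fkbp10 (0.83) and Mfap2 (0.83). Aqp7 was most like Amy1 (0.85), Nnat (0.85), Nyap1 (0.78), Fabp4 (0.75) and Syp (0.75). These values of Aqp7 rest in part on RS10_721, since without it r was 0.75, 0.76, 0.70, 0.59 and 0.62.

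The wider setting of water transport was described with lists of genes. Counts of called genes in these lists stand beside 0.0391% of all tested genes called at 10% RPS, all higher, and 1.15% rising and 0.950% falling in the trend. Of 17 tested genes for absorption of sodium, chloride and fluid, 1 was called higher at 10% RPS, 4 rose and 2 fell in the trend, and the median log2 fold change at 10% RPS was 0.09 against -0.01 over all tested genes. Slc9a3, an apical sodium/proton exchanger, was at 8.23 ± 7.61 CPM (SD, n = 5) at 0% RPS and 90.9 ± 50.4 CPM at 10% RPS, and rose in the trend (3.75, edgeR adjusted p = 0.0372). Car4, a membrane-bound carbonic anhydrase, was the gene called at 10% RPS, from 1116 ± 169 to 1825 ± 131 CPM (log2 fold change 0.71, edgeR adjusted p = 0.0102), and it also rose in the trend. This call at 10% RPS was lost under the treatment label, at 0.60 (adjusted p = 0.372), without the 3 mice of disagreeing labels, at 0.70 (adjusted p = 0.0786), and without these and RS10_721, at 0.69 (adjusted p = 0.0750). The chloride/bicarbonate exchanger gene Slc26a3 (0.61, edgeR adjusted p = 0.00423) and the scaffold gene Nherf1 (0.55, adjusted p = 0.0239) were the other 2 that rose in the trend. The sodium channel subunits Scnn1b (-1.47, edgeR adjusted p = 0.0241) and Scnn1g (-2.09, adjusted p = 0.0410) fell in the trend. The library of RS10_721 held 187 CPM of Slc9a3 against 1.49 to 148 CPM in the other 19 mice.

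Of 10 tested genes for secretion of chloride and fluid, 0 rose and 1 fell in the trend, the channel gene Best2 (-0.75, edgeR adjusted p = 0.0117), and the median log2 fold change at 10% RPS was -0.03. For Best2 at 10% RPS the adjusted p was 0.00125 by DESeq2 and 0.0659 by edgeR. Among 15 hormone receptors and regulators of water transport, 1 rose in the trend, Prkar2a, a regulatory subunit of protein kinase A (0.35, adjusted p = 0.0296). The vasopressin receptor gene Avpr2, through which Aqp2 is controlled in kidney, was at 0.386 ± 0.146 CPM at 0% RPS. Among 7 genes of the response to hypertonicity 1 rose in the trend, the myo-inositol transporter gene Slc5a3 (0.75, edgeR adjusted p = 0.0485), and the sensor gene Nfat5 was at -0.03 (adjusted p = 0.886). For Slc5a3 at 10% RPS the adjusted p was 0.0369 by DESeq2 and 0.151 by edgeR.

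None of 11 genes of glycerol and triglyceride handling was called at 10% RPS or in the trend by edgeR, with 2 at an unadjusted p under 0.05 in each, a number to be read beside 15.2% of all tested genes at 10% RPS and 19.1% in the trend, and DESeq2 gave no adjusted p below 0.0722 in this list at 10% RPS. Of 13 genes that make or remove hydrogen peroxide, which Aqp8 can pass, 2 rose in the trend, the dual oxidase gene Duox2 (0.92, edgeR adjusted p = 0.0404) and its maturation factor gene Duoxa2 (1.23, adjusted p = 0.0359). At 10% RPS DESeq2 gave them adjusted p values of 0.00907 and 0.0365, and edgeR gave 0.103 and 0.120. The median log2 fold change at 10% RPS was 0.06 in the glycerol list and 0.17 in the peroxide list.

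In all, 14 genes of these lists and of the marker lists had a called trend. Most of these calls were lost without the 3 mice whose labels disagree, as that of Aqp8 was. Under the treatment label 0 of the 14 were called, beside 0 of all genes tested. Without the 3 mice 3 were called (Car4, Nherf1 and Slc26a3), beside 0.312% of all genes. Without these mice and RS10_721 Slc9a3 was called as well, which makes 4, beside 0.486% of all genes. Without RS10_784 alone, whose labels agree, 0.133% of all genes were called. Why the calls were lost was not tested. Scnn1b and Scnn1g, for example, had trends of -1.38 (edgeR adjusted p = 0.0837) and -2.09 (adjusted p = 0.107) without the 3 mice. Without RS10_721 alone all 14 were called, as they were by DESeq2 on all mice, beside 2.50% and 3.76% of all genes. All 14 trends had the same sign in each of these fits.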

How the data were processed

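DC RNA of 20 mice was sequenced as stranded mRNA libraries with single 50-base reads. The authors trimmed the reads, mapped them to GRCm39 in CLC Genomics Workbench and deposited raw counts per gene, unscaled and with no mice pooled. The annotation, the strand setting and how multiply mapped reads were counted are not given in the sources used here. Symbols came from GENCODE vM39 for 26338 of 26619 identifiers. No column was left unused.

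Genes passing filterByExpr (minimum count 10) were TMM-scaled and tested in R 4.3.3 with the edgeR 4.0.16 quasi-likelihood test in 1 fit over the 4 diets, with Benjamini-Hochberg adjustment. Calls needed an adjusted p of at most 0.05 and a fold of at least 1.5, or the first alone for the trend. DESeq2 1.42.0, limma 3.58.1 (voom), scaling, filter, depth, labels, the clock gene Dbp as covariate and each mouse left out were alternatives. Each p sets a difference or trend between diets against the spread between mice. The procedure was tested on simulated data.

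The members and lists were chosen with earlier results of these data known. Named were all aquaporins, the 5 genes most similar to each tested member, and up to 4 genes per list with an adjusted p of at most 0.05, taken by size at 10% RPS. Avpr2, Nfat5, Slc26a3 and Nherf1 were named after their values were seen.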

Additional observations from a re-analysis of the deposited data

Results flagged for a closer look

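Within each diet of 5 mice the highest and lowest value of 10 aquaporin genes and of the total count were compared with the gap to the nearest other mouse. A value stood apart when this gap was more than 0.71 of the range of the 5 mice (Dixon's test). Of 44 groups tested 6 had such a value. The rule flags 1 in 20, or about 2.2, only for independent, normally spread values. Genes with few reads and libraries shared between genes do not meet this, so 2.2 is a rough guide.

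Mouse RS10_721 of the 5% RPS group had 3 of them. Its Aqp4 was 369.7 CPM with the next mouse at 137 CPM, its Aqp7 was 3.13 CPM with the next at 0.994 CPM, and its Aqp12 was 2.98 CPM with the next at 0.237 CPM. The same library had 5611 CPM over the pancreas markers, 210.3 CPM over the fat cell markers and 535 CPM over the posterior Hox genes, each outside the range of the other 19 libraries.

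Mouse RS10_715 of the 2% RPS group had 2, an Aqp4 of 128 CPM with the next at 64.7 CPM, and an Aqp5 of 0.148 CPM, which rests on 4 reads, with the next at 0.0324 CPM. Its red cell markers summed to 349 CPM. The total count of RS10_724 of the 5% RPS group was 22.3 megacounts, below the next at 28.7 megacounts, and this mouse also had the lowest Aqp8 and Aqp4 of its diet.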

How the results depend on the processing

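No paired analysis was possible because each mouse number belongs to 1 animal. Of the 35 alternatives run for each RPS level, the number of members called remained 0 in 35 at 2% RPS, in 35 at 5% RPS and in 32 at 10% RPS. DESeq2 called 2 members at 10% RPS, also 2 without RS10_721 and 1 (Aqp8) without the 3 mice whose labels disagree. Over all genes it called 0.811, 0.877 and 0.458% in these fits. For the trend, called in 1 member, 21 of 33 alternatives gave 1. DESeq2, limma-voom, edgeR without robust estimation, and DESeq2 without RS10_721 or without the 3 mice gave 2 (Aqp8 and Aqp4). In that order these fits called 3.76, 2.05, 2.26, 4.03 and 2.69% of all genes. The treatment label, the 3 mice left out, and these with RS10_721 left out gave 0, beside 0, 0.312 and 0.486% of all genes. Leaving out each mouse in turn gave 0 to 2. The 4 fits with other counts were those without RS10_721 or RS10_727 (2) and without RS10_729 or RS10_784 (0). In that order they called 2.50, 6.34, 0.702 and 0.133% of all genes.

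In these fits the sign turned only for values that were not called. The Aqp7 trend of 0.01 became -0.01 without the filter, -0.11 under the treatment label, -0.02 with Dbp, -0.13 without RS10_721 and the 3 mice, and -0.13 with DESeq2 without RS10_721, and lay between -0.14 and 0.15 with each mouse left out. The Aqp11 trend of -0.03 became 0.03 under the treatment label, 0.04 without the 3 mice (0.04 with DESeq2), 0.08 with Dbp, 0.06 without the 4 mice and 0.00 with DESeq2 without RS10_721, and lay between -0.17 and 0.07 with each mouse left out. Aqp8 at 2% RPS became 0.03 under the treatment label. At 5% RPS, without RS10_721 and the 3 mice Aqp1 was 0.01 and Aqp11 0.15, and with DESeq2 without RS10_721 they were 0.00 and 0.06. With each mouse left out, Aqp11 lay between -0.12 and 0.14 at 10% RPS and between -0.16 and 0.06 at 5% RPS, Aqp1 between -0.13 and 0.00 at 5% RPS, and Aqp7 between -0.27 and 0.17 at 10% RPS and between -0.21 and 0.42 at 2% RPS. Thinning all libraries to the smallest total gave an Aqp8 trend of 0.76 (adjusted p = 0.0202). Omitting RS10_721 and the 3 mice together, the DESeq2 fits without mice, and the fits of list genes without mice, were chosen after seeing the data. The cause of these shifts was not tested. Aqp3 could not be tested at 1 to 11 reads per library.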

Other observations

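Aqp4 varied more from mouse to mouse than the other well-expressed members. Its highest value over the 20 mice was 10.5 times its lowest, against 2.90 times for Aqp8, 2.32 times for Aqp11 and 1.47 times for Aqp1. Within the 10% RPS group the SD was 50.2% of the mean for Aqp4, 18.5% for Aqp8 and 8.19% for Aqp1.

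RPS mice that were low for one of Aqp8 and Aqp4 were not always low for the other. RS10_727 had the highest Aqp8 of all 20 mice, 799.6 CPM, with an Aqp4 of 72.4 CPM, the lowest of its diet. RS10_731 had the lowest Aqp8 of its diet, 483 CPM, with an Aqp4 of 114 CPM and the highest Aqp11 of all 20 mice, 22.1 CPM.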
